A study of Mus musculus with 92 samples.

Results

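The genes described here encode the proteins of the cytosolic ribosome. They were taken from the gene symbols of the authors' deposited comparison tables: Rpl or Rps followed by a number and at most one of the letters a, x, y or l, together with Rplp0, Rplp1, Rplp2 and Rpsa, and without names ending in -ps. The rule gave 80 genes of the 17926 that appear in either table, 79 of them in the female table and 80 in the male one, where Rpl32l was listed alone. Of the 80, 58 had usable counts in female livers and all 58 passed the filter on low counts, so that they stood among 12617 genes tested. The 22 others, for which only the deposited comparisons were used, included Rps12, Rpl34, Rpl17, Rpl7a, Rpl35, Rps4l, Rpl27, Rps15, Rplp0, Rps28, Rpl23, Rpl31, Rpl13a, Rpl36a, Rpl39, Rps27, Rps13, Rpl6l, Rpl41, Rpl24 and Rpl32l. The annotation lists 3 of the 80 as pseudogenes, namely Rps4l, Rpl6l and Rpl32l.

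Livers came from HET3 mice, a cross of several inbred strains in which each animal carries its own mix of alleles. All animals were fasted overnight for 16 h, livers were snap frozen, and stranded libraries were made from polyadenylated RNA. Mice ate a Control diet, a Low Amino Acid diet, in which total amino acids were restricted, or a Low Isoleucine diet, in which that branched-chain amino acid alone was. The female groups taken at 6 months held 8 Control, 8 Low Amino Acid and 7 Low Isoleucine libraries. Those taken at 24 months held 8 Control, 7 Low Amino Acid and 8 Low Isoleucine libraries. The labels start the diets at 9 weeks of age in animals taken at 6 months and at 6 months of age in animals taken at 24 months, whereas the series text gives 13 weeks on diet at both ages. Differences between the ages therefore cannot be told apart from differences in starting age or time on diet. Each library has a code of its own in the labels, and p-values measure the spread between these libraries, whatever its source. In 19 of the 46 libraries the number in that code recurs within the group. What the number marks is not stated, and libraries that share it were treated as separate. The livers are bulk tissue, where fewer cells of a type and less RNA per cell cannot be told apart.

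A cytosolic ribosome is built from a small subunit, whose proteins carry Rps names, and a large subunit, whose proteins carry Rpl names. Rplp0, Rplp1 and Rplp2 form the stalk of the large subunit, which recruits elongation factors. Ribosomal protein mRNAs are classical TOP mRNAs: they begin with a C followed by a run of pyrimidines, through which the mTORC1 pathway, a sensor of amino acids, and the binding protein LARP1 control their translation and stability. A change in translation does not have to appear as a change in mRNA, which is what was measured here. Mammalian genomes also hold many processed copies of these genes, so reads may be split between a gene and a near-identical copy. The deposited counts carry the name of RSEM, a program that estimates counts, and 82.4% of their values were whole numbers. Beyond that name, the sources used here do not describe how multiply mapping reads were shared out.

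A pyrimidine run that begins with C lay within 15 bases of many listed start sites. RefSeq start regions on GRCm38.p6 matched 58 of the 80 genes, 9 of them with several listed starts, each region holding 250 bases before and 50 bases after the start. The 8 windows of 30 bases printed next belong to genes on which the results turn: Rps21 and Rps16 differed between groups by the test used here, Rpl27a did so in the authors' deposited table, Rpl37a lay just outside the threshold, Rplp2 and Rps24 moved in opposite directions in young males, Rpl4 was the steadiest gene and Rpl26 the most variable. Capitals mark the longest run of C and T that begins with C within 15 bases of a listed start.
Rps21: aggacccgCCCTCCTgcccaatagtgctgc
Rps16: aaagcccgCTTCTgtcgtgacgtagcactc
Rpl27a: ttcgtgagCTCCTCCCTTTTCCCTTTCTgc
Rpl37a: cacttccgCTCgccggtctaaaaccgcgca
Rplp2: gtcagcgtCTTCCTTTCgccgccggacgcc
Rps24: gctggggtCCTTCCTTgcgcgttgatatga
Rpl4: aagtctttCCTTTTCCTgtgggagcagccg
Rpl26: cgcgagatCTCgcggcaacttacagaaccg
These windows lie on the plus strand at chr2:180257369-180257398 (Rps21), chr7:28350670-28350699 (Rps16), chr7:109519183-109519212 (Rpl27a), chr1:72711242-72711271 (Rpl37a), chr7:141447639-141447668 (Rplp2), chr14:24490668-24490697 (Rps24), chr9:64173366-64173395 (Rpl4) and chr11:68901543-68901572 (Rpl26). The marked run was 20 bases long in Rpl27a, 9 in Rpl4 and Rplp2, 8 in Rps24, 7 in Rps21, 5 in Rps16 and 3 in Rpl37a and Rpl26. Counted from the listed start, it began at -2 in Rps21 and Rps24 and at -4 in Rpl27a and Rplp2, and reached past the start. It began at -13 in Rpl4, -11 in Rps16, -10 in Rpl37a and -15 in Rpl26, and ended before the start. In the latter genes the marked run is thus not the beginning of an mRNA that starts at the listed base.

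A run of at least 8 bases was found in 28 of the 58 genes (48.3%) and in 3456 of 26967 other genes (12.8%), with median lengths of 7 and 4. Runs were counted wherever they began within 15 bases of a listed start, also where they ended before it. The listed start need not be the start used in these livers. The letters CCGGAAG, the core recognised by ETS factors such as GABPA, occurred on either strand of the 300-base region in 24 of the 58 genes (41.4%) and in 9.86% of other genes. GCCATNTT, the core recognised by YY1, occurred in 11 (19.0%) against 6.93%. TATAAA, the TATA box, occurred in 7 (12.1%) against 15.7%. The motifs were not searched for overlap with each other, and a match is a description of the sequence.

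Across the 46 female libraries the usable counts totalled 7.82 M to 27.6 M per library, with a median of 22.6 M. The hepatocyte marker Alb, which encodes the plasma protein albumin, stood between 45082 and 119545 CPM, and Hnf4a, Apob, Cps1 and Apoa1 were present in every library. For these markers, for Kdm5d and for the summed marker levels given below, CPM are counts scaled to the library total. For the ribosomal protein genes, CPM are counts scaled to the library size after TMM scaling. Levels of these genes in CPM are therefore not plain fractions of the library total. A library labelled 6-month Low Isoleucine female, replicate 3, was left out because it held 50.8 CPM of Kdm5d, a gene of the Y chromosome, against at most 0.639 CPM in the other female libraries. In 4 libraries the deviations of all genes tracked the GC content or length of the transcript with an absolute Spearman rho of at least 0.4: 6-month Control replicate 7, 6-month Low Amino Acid replicate 5, 6-month Low Isoleucine replicate 8 and 24-month Control replicate 6. Another 5 libraries, all at 24 months, were high in neutrophil markers: Control replicates 1 and 4, Low Amino Acid replicates 2 and 4 and Low Isoleucine replicate 5.

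The 58 genes together took close to 1% of the counts in every group. The share was 0.977% ± 0.123 (SD, n = 8) in 6-month Control, 0.946% ± 0.073 (n = 8) in 6-month Low Amino Acid and 0.940% ± 0.0933 (n = 7) in 6-month Low Isoleucine females. At 24 months it was 1.04% ± 0.154 (n = 8), 0.927% ± 0.0903 (n = 7) and 0.980% ± 0.192 (n = 8) in the same order of diets. The 24-month groups ran from 0.891 through a median of 0.993 to 1.38% in Control, from 0.812 through 0.924 to 1.10% in Low Amino Acid and from 0.635 through 0.967 to 1.31% in Low Isoleucine. All 6 groups overlapped, and the highest share of all, 1.38%, belonged to 24-month Control replicate 6, the next in its group being 1.11%. The library that was left out had a share of 0.887%.

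**Figure D1:**
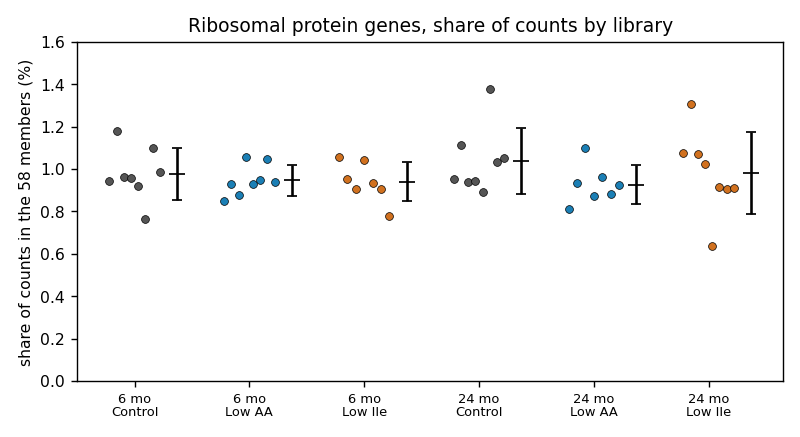
Share of the usable counts taken by the 58 ribosomal protein genes (vertical axis, percent) in each of 46 female libraries (points) by age and diet, with the mean and SD of each group beside the points. The groups overlap, with 24-month Control replicate 6 highest at 1.38% and a 24-month Low Isoleucine library lowest at 0.635%.

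Most ribosomal proteins enter the ribosome in equal numbers, whereas mRNA levels per length of coding sequence spanned a wide range. Reads come from the whole transcript, so this measure is raised where the coding sequence is a small part of it. In Rps29, for example, it holds 171 of 390 bases. Part of the range and of the ranks therefore comes from the measure, and levels per length of transcript were not computed. The highest mean levels over the 46 libraries were 680.7 ± 95.8 CPM per kilobase of coding sequence (SD, n = 46) for Rpl10, 541 ± 113 for Rpl37a, 508 ± 101 for Rps24 and 501 ± 131 for Rps29. Rpl10 joins the large subunit late in its maturation, and Rps24 acts in processing of the small-subunit rRNA. The lowest were 84.9 ± 49.8 for Rpl29, 120 ± 42.0 for Rpl36, 142 ± 32.4 for the stalk protein gene Rplp2, 144 ± 21.1 for Rpl13 and 167 ± 28.7 for Rps10, all in CPM per kilobase. Of tissue-restricted paralogs, which neither comparison table lists and which are not among the 80, Rpl3l reached at most 8 counts and Rpl39l at most 5 in any library, and Rpl10l had a count of 0 in every library.

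The 58 genes moved together from library to library. After each group's mean was removed, the correlation of log2 CPM between members over the 46 libraries had a median of 0.60 over 1653 pairs, with 5% of pairs below 0.09 and 5% above 0.89, and 1621 pairs (98.1%) lay above 0. These correlations share libraries, depth and scaling, and describe these libraries only. The same measure was not computed for other sets of genes, so the shared movement is not shown to be particular to these genes. Single genes outside the set, the strongest of all tested, also followed members closely. They include Uqcrq with Rpl36 (r = 0.94), Ndufa4 with Rps27l (0.92) and Atp5c1 with Rpl22 (0.92). The first principal component of the residuals held 60.6% of their variance, and all 58 genes loaded on it with one sign. The position of a library on it correlated at a Spearman rho of -0.50, over the 46 libraries, with how strongly all its genes tracked transcript length. Counts of members that lie on one side of 0 are therefore not counts of independent genes. The second component held 14.8% and ordered the genes by base composition: its loading correlated with the GC content of the coding sequence at a Spearman rho of -0.89 over the members. At one end stood Rplp2, Rpl28, Rpl36, Rplp1, Rps9 and Rps29, and at the other Rps15a, Rps27a, Rpl7, Rpl5 and Rps24. The position of a library on this component correlated at rho = -0.75 over the 46 libraries with how strongly all its genes tracked GC content.

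Rpl4, which lines the exit tunnel of the large subunit, and Rpl6 were the steadiest, with standard deviations within groups of 0.17 and 0.19 on the log2 scale. Rpl26 (0.98), Rpl29 (0.88), Rpl36 (0.58), Rpl21 (0.54) and Rplp1 (0.52) varied most. The largest single gap between neighbouring libraries in Rpl26, a large-subunit gene, ran from 48.0 to 73.0 CPM, with 11 libraries below and 35 above, and its levels spanned 20.8 to 259.5 CPM. In Rpl29, another large-subunit gene, the gap ran from 34.0 to 48.4 CPM, with 25 libraries below and 21 above, over a range of 10.5 to 89.6 CPM. Rpl21 spanned 48.9 to 232.9 CPM. Whether the levels of Rpl26 or Rpl29 fall into discrete classes was not tested. High and low libraries of Rpl29 were found in all 6 groups. Low libraries of Rpl26, under 50 CPM, were found in 4 groups, and the Low Amino Acid groups had none at either age.

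**Figure D2:**
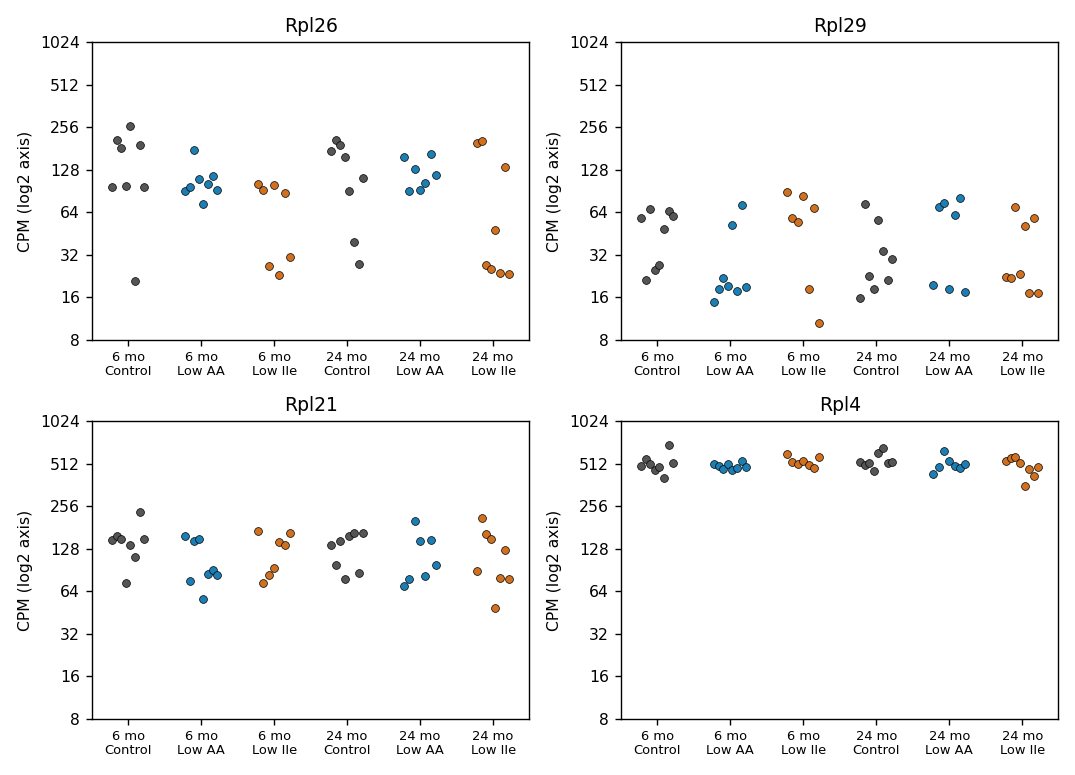
CPM (log2 axis) of Rpl26, Rpl29, Rpl21 and Rpl4 in each of 46 female libraries (points) by age and diet. Rpl26 and Rpl29 spread over ranges of 20.8 to 259.5 and 10.5 to 89.6 CPM. Their standard deviations within groups are 0.98 and 0.88 on the log2 scale, whereas that of Rpl4 is 0.17.

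Several members were followed most closely by genes of their own chromosome. For each member the 20 genes with the strongest correlation, positive or negative, over the 46 libraries were taken among the tested genes that are not members. The number on the member's own chromosome was 13 of 20 for Rpl29 on chromosome 9, which holds 5.84% of the genes with a position, 13 for Rps2 on chromosome 17 (4.67%), 10 for Rpl26 on chromosome 11 (8.58%), 9 for Rpl21 on chromosome 5 (6.37%) and 9 for Rps18 on chromosome 17. Across the 58 members the median was 2, and 7 members had at least 5. The same-chromosome companions of Rpl29 (chr9:106429454-106431568, plus strand, GRCm38) lay 0.0106 to 19.4 Mb away, with a median of 2.23 Mb. Those of Rps2 lay 0.0249 to 31.3 Mb away and those of Rpl26 (chr11:68901583-68906989, plus strand) 0.0841 to 40.6 Mb.

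The closest companion of Rpl29 was Abhd14a (r = 0.80, n = 46 libraries), followed by Gm11868 (r = -0.79) and Acpp (0.75). Gm11868 is annotated as a processed pseudogene at chr4:18844202-18845679. Its sequence is 98.0% identical over 1485 aligned columns to Cyb5r4 at chr9:87022014-87077774, on the chromosome of Rpl29, and Cyb5r4 itself had r = 0.58. For Rpl21 (chr5:146832890-146837032, plus strand) the first 5 were Cyp3a13 (0.79) and Sh2b2 (-0.78), both on chromosome 5, Rab2a on chromosome 4 (0.71), Eef1e1 on chromosome 13 (0.69) and Psma6 on chromosome 12 (0.68). For Rpl26 the first 5 were Fam19a2 on chromosome 10 (-0.59), Gm6685 on chromosome 11 (-0.58), Pcdh7 on chromosome 5 (0.57), Pfas on chromosome 11 (0.55) and Grik4 on chromosome 9 (-0.54). No genotype of the animals was analysed here.

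At 6 months no ribosomal protein gene passed the test for either restricted diet in females by edgeR's quasi-likelihood test with Benjamini-Hochberg adjustment over all genes tested. For Low Amino Acid against Control 0 of 58 passed an adjusted p of 0.05, where 0.0% of all genes did. At an unadjusted p under 0.05 there were 0 higher and 3 lower, where 4.82% of all genes were lower, and DESeq2 and limma voom also called 0. For Low Isoleucine against Control 0 of 58 passed (0.0238% of all genes), and 0 by DESeq2 and by voom. Unadjusted, 0 were higher and 3 lower, where 5.16% of all genes were lower. Under both diets the 3 lower members are a share near that of all genes. For Low Isoleucine against Low Amino Acid 0 of 58 passed (0.0159% of all genes), and 0 by the other tools. Unadjusted, 1 was higher and 0 were lower, where 5.57% of all genes were higher and 4.42% lower. Both diets share the Control libraries, so their values are not independent.

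The median log2 fold change of the 58 genes at 6 months was -0.09 for Low Amino Acid, with the median of all genes at 0.00, and -0.07 for Low Isoleucine, with all genes at -0.01. The Low Isoleucine median was 0.02 without the 4 libraries that tracked GC or length, and ran from -0.13, without Control replicate 6, to -0.02, without Low Isoleucine replicate 8, when single libraries were left out. The Low Amino Acid median ran from -0.13, without Control replicate 6, to -0.06, without Control replicate 7. Rps14, a small-subunit gene at the decoding side of the ribosome, had the lowest p of the members under both diets. Its level ran from 122.0 through a median of 188.0 to 282.3 CPM in Control, from 109.5 through 147.4 to 172.4 CPM in Low Amino Acid and from 79.2 through 139.7 to 182.4 CPM in Low Isoleucine. These ranges overlap, and the differences of -0.44 ± 0.17 (log2, SE; adjusted p = 0.525) and -0.48 (adjusted p = 0.329) did not pass. The largest value was -1.13 ± 0.47 for Rpl26 under Low Isoleucine (adjusted p = 0.388). Its 6-month Low Isoleucine libraries ran from 23.1 through 87.8 to 102.2 CPM against 20.8 through 140.9 to 259.5 CPM in Control. Both groups had libraries on either side of the gap described above.

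At 24 months the ribosomal protein genes lay lower on both restricted diets, with few genes past the test one by one. For Low Isoleucine against Control, 55 of 58 log2 fold changes were below 0, with a median of -0.21 where the median of all genes was -0.02 and 53.6% of all genes were below 0. Of the 58, 1 fell and 0 rose by edgeR, where 3.79% of all genes fell. By DESeq2 3 fell and by voom 0, and at an unadjusted p under 0.05 15 of 58 were lower, where 12.7% of all genes were. For Low Amino Acid against Control 57 of 58 were below 0, with a median of -0.17 where all genes had -0.03 and 56.3% of them were below 0. By edgeR 0 of 58 passed (0.745% of all genes passed in either direction), by DESeq2 1 fell and by voom 0, and 18 of 58 were lower at an unadjusted p under 0.05, where 9.84% of all genes were. Without TMM scaling the Low Isoleucine median was -0.09 and that of all genes rose to 0.09, and the split of all calls turned from 41.6% to 81.3% higher. Under the alternative scalings, tools and library sets run, the medians lay between -0.23 and -0.09 for Low Isoleucine and between -0.23 and -0.11 for Low Amino Acid. Leaving out single libraries gave -0.28 to -0.13 and -0.24 to -0.11, with both values nearest 0 without Control replicate 6. In these comparisons the log2 fold change rose with transcript length. The Spearman rho was 0.31 over the members and 0.20 over 12297 other coding genes for Low Isoleucine, and 0.29 and 0.13 for Low Amino Acid. Beyond the offset for transcript length given below, the part of length in the lower values was not tested.

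**Figure D3:**
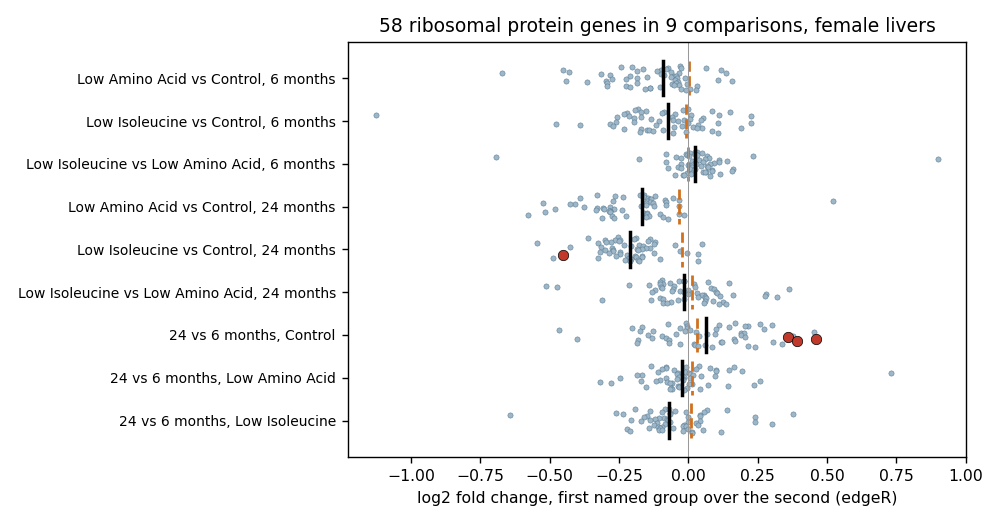
Fitted log2 fold change (horizontal axis, first named group over the second) of each of the 58 ribosomal protein genes in 9 comparisons of female livers (points, called genes large and red), with the median of the 58 (black bar) and of all 12617 genes (dashed orange bar). The median of the 58 is -0.17 and -0.21 for the restricted diets at 24 months, where all genes have -0.03 and -0.02.

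The count of lower genes at an unadjusted p under 0.05 rested on few libraries and, for Low Isoleucine, moved with the settings. Without 24-month Control replicate 6 it was 4 of 58 for Low Isoleucine and 6 of 58 for Low Amino Acid, where 12.8% and 11.4% of all genes were lower. For Low Isoleucine it was also 3 without Low Isoleucine replicate 5 (13.6% of all genes) and 6 without replicate 7 (12.2%). The most was 29, without replicate 2 (15.1%). Leaving out the 4 libraries that tracked GC or length gave 5 for Low Isoleucine (13.4% of all genes) and 9, or 15.5% of the members, for Low Amino Acid (11.7%). The Low Isoleucine count was 4 with the offset for transcript length (12.4% of all genes), 2 without TMM (5.80%), 6 with only the groups compared (8.39%) and 7 by voom (11.9%). Except for the 29, these Low Isoleucine counts are shares of the members near that of all genes or below it. Other settings kept the Low Isoleucine count at 15 to 19, where 10.7% to 14.2% of all genes were lower. They were DESeq2's size factors or Wald test, no filter, the left-out library put back, the GC offset and removal of the neutrophil-high libraries. The count was 26 without Control replicate 4 (12.6% of all genes) and 24 without Low Isoleucine replicate 3 (12.4%). The scalings, tools and offsets gave 15 to 20 for Low Amino Acid, where 5.83% to 10.8% of all genes were lower.

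Rps21, a small-subunit gene at chr2:180257377-180258445 on the plus strand, was the gene that fell. Its level in 24-month Control ran from 52.7 through a median of 70.6 to 129.5 CPM. In Low Isoleucine it ran from 30.5 through 55.9 to 67.5 CPM and in Low Amino Acid from 46.0 through 50.3 to 60.8 CPM. The groups overlap, with the highest Control library, replicate 6, standing far above the next at 77.9 CPM. The Low Isoleucine difference was -0.45 ± 0.14 (log2, SE; edgeR adjusted p = 0.0387) and the Low Amino Acid difference -0.52 ± 0.14 (adjusted p = 0.0627). Without Control replicate 6, which also had the highest share of ribosomal protein counts and tracked transcript length at rho = -0.40, the Low Isoleucine difference was -0.29 with an adjusted p of 0.135. The call was also lost without any one of the Low Isoleucine replicates 5, 6, 7 and 8, and over all alternatives the adjusted p ranged from 0.0198 to 0.244. Without the 4 libraries that tracked GC or length, Rps29 was called (-0.48, adjusted p = 0.0376) and Rps21 was not (-0.30, adjusted p = 0.107).

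The members next to the threshold for Low Isoleucine at 24 months were Rpl27a and Rpl37a, both of the large subunit and both with an edgeR adjusted p of 0.0514. Rpl27a ran from 99.4 through 119.4 to 175.6 CPM in Control and from 71.3 through 95.9 to 130.0 CPM in Low Isoleucine, a difference of -0.33 ± 0.11. Rpl37a ran from 126.1 through 176.6 to 248.8 CPM in Control and from 74.2 through 135.3 to 174.7 CPM in Low Isoleucine, a difference of -0.43 ± 0.14. For both genes the lower libraries of Control fall within the Low Isoleucine range. Rps29, the small-subunit gene with the fourth-highest level per kilobase of coding sequence, ran from 80.7 through 114.3 to 134.3 CPM in Control, from 62.1 through 74.2 to 84.9 CPM in Low Amino Acid and from 39.6 through 86.7 to 99.7 CPM in Low Isoleucine. All Low Amino Acid libraries lay below every Control library but the lowest, and the differences of -0.58 ± 0.21 (adjusted p = 0.150) and -0.49 (adjusted p = 0.127) did not pass.

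Other members of known role showed values of the same size or smaller, none past the threshold. Under Low Isoleucine at 24 months the log2 difference from Control was -0.30 for Rplp1 and -0.03 for Rplp2, the stalk pair, and 0.04 for Rpsa. It was -0.18 for Rps6, the target of S6 kinase, whose Control libraries ran from 288.0 through 328.6 to 472.1 CPM and whose Low Isoleucine libraries ran from 157.1 through 315.0 to 381.3 CPM. Rpl5 (-0.15) and Rpl11 (-0.19) encode the proteins that with 5S rRNA can bind Mdm2. The values were -0.18 for Rpl3, -0.25 for Rpl10, -0.21 for Rps4x, -0.16 for Rpl36, -0.31 for Rpl37, -0.27 for Rpl38, -0.32 for Rps14, -0.25 for Rps19, -0.17 for Rps24 and -0.32 for Rps27l. Under Low Amino Acid they were -0.33 for Rplp1, -0.31 for Rplp2, -0.07 for Rpsa, -0.09 for Rps6, -0.12 for Rpl5, -0.17 for Rpl11, -0.52 for Rpl36, -0.48 for Rps14, -0.28 for Rps19 and -0.01 for Rps27l.

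The most variable members had wide errors in these comparisons. Rpl26 ran from 27.7 through 135.3 to 207.5 CPM in 24-month Control, from 91.2 through 118.1 to 166.5 CPM in Low Amino Acid and from 23.3 through 37.5 to 204.7 CPM in Low Isoleucine. At least 4 of the 8 Low Isoleucine libraries were thus under 50 CPM, and the difference of -0.55 ± 0.44 (log2, SE, edgeR adjusted p = 0.497) did not pass. Rpl29 ran from 16.0 through 26.3 to 72.8 CPM in Control and from 17.3 through 61.2 to 80.3 CPM in Low Amino Acid. It was the 1 member above 0 under Low Amino Acid at 24 months, at 0.52 ± 0.43 (edgeR adjusted p = 0.544). Both groups had libraries on either side of its gap.

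The 2 restricted diets were not separated from each other by these genes. For Low Isoleucine against Low Amino Acid at 24 months 0 of 58 passed by edgeR, DESeq2 or voom, where 1.25% of all genes passed by edgeR. At an unadjusted p under 0.05 1 member was lower, Rps27l at -0.31 (edgeR adjusted p = 0.297), where 8.46% of all genes were lower. The median was -0.01, with 26 above and 32 below 0, and turned to 0.08 without TMM scaling, to 0.03 with an offset for transcript length, to 0.01 by voom and to 0.05 without the neutrophil-high libraries.

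Some neutrophil markers and acute phase genes were lower under Low Isoleucine at 24 months, whereas the summed levels of each immune cell list overlapped between the groups. The summed level of 10 neutrophil markers ran from 9.00 through 50.8 to 788.8 CPM in 24-month Control, from 6.29 through 9.63 to 452.4 CPM in Low Amino Acid and from 3.60 through 13.5 to 174.4 CPM in Low Isoleucine, and did not pass 13.2 CPM in any library taken at 6 months. Under Low Isoleucine 3 of 10 neutrophil markers fell, Camp by 4.11, S100a8 by 3.67 and S100a9 by 3.16 on the log2 scale, and 11 of 17 acute phase genes fell. The 12 lymphocyte markers measured summed to 12.2 through 36.0 to 247.0 CPM in 24-month Control, to 12.1 through 22.5 to 35.0 CPM in Low Amino Acid and to 15.1 through 27.7 to 203.5 CPM in Low Isoleucine. The 11 macrophage and Kupffer cell markers measured summed to 281.5 through 782.3 to 3147 CPM, 397.0 through 606.2 to 2009 CPM and 161.7 through 615.3 to 1855 CPM. No marker of these lists was at 0 in every library. Without the 5 neutrophil-high libraries the Low Isoleucine comparison called Rps21 (-0.47, adjusted p = 0.0430) and Rpl27a (-0.36, adjusted p = 0.0431), and the Low Amino Acid comparison called Rps21 (-0.60, adjusted p = 0.0204). The part of lymphocytes and macrophages in these differences was not tested.

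With age, a few ribosomal protein genes were higher in Control livers, a smaller share than among all genes. By edgeR 3 of 58, Rps16 and Rps21 among them, rose and 0 fell from 6 to 24 months, where 16.7% of all genes rose, and DESeq2 called 4 and voom 2, all higher. The median of the 58 was 0.06, with 36 above and 22 below 0, against 0.03 for all genes. It ran from -0.00, without 24-month Control replicate 6, to 0.13, without 6-month Control replicate 7, when single libraries were left out. Rps16, a small-subunit gene at chr7:28350652-28353155 on the plus strand, ran from 45.5 through 78.4 to 88.4 CPM at 6 months and from 85.6 through 94.7 to 156.9 CPM at 24 months. The 2 groups touch only where the higher young libraries meet the lower old ones, and the rise was 0.46 ± 0.13 (log2, SE; adjusted p = 0.0080). It passed in all alternatives, with an adjusted p of at most 0.0404 and a value of 0.34 to 0.52.

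Rps21 ran from 41.8 through 57.7 to 64.6 CPM in 6-month Control, against the 24-month values given above, a rise of 0.39 ± 0.14 (edgeR adjusted p = 0.0299). The 24-month Control libraries enter both this comparison and those of the diets, so the rise of Rps21 with age and its fall under diet are not independent. Rpl14, of the large subunit, lay just outside with 0.30 and an adjusted p of 0.0554. The library 24-month Control replicate 6 was the highest of its group in Rps21 and Rps16. Without it the rise of Rps21 was 0.23 (adjusted p = 0.146) and 1 member was called, Rps16. Without 6-month Control replicate 6 the adjusted p of Rps21 was 0.0680, and 1 member was called. In a fit of only these 2 groups 1 member was called, Rps16, and without the 4 libraries that tracked GC or length 2 were, Rps16 and Rpl12. Over the same comparison 10 of 10 neutrophil markers, 11 of 12 lymphocyte markers and 9 of 11 macrophage and Kupffer cell markers rose, with medians of 4.99, 2.12 and 1.17. Without the neutrophil-high libraries 5 members were called, with Rps16, Rps21, Rpl14 and Rpl28 among them.

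**Figure D4:**
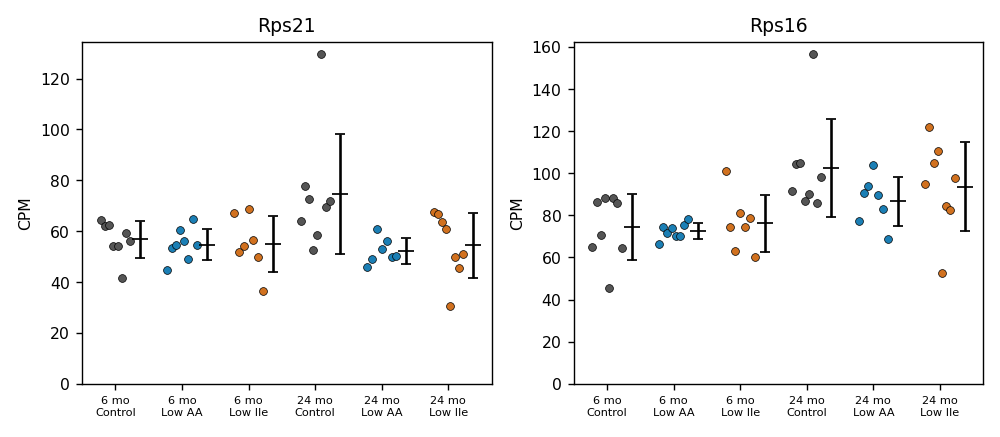
CPM (vertical axis) of Rps21 and Rps16, both called by edgeR, in each of 46 female libraries (points) by age and diet, with the mean and SD of each group beside the points. In 24-month Control the highest library is replicate 6, at 129.5 CPM for Rps21 and 156.9 CPM for Rps16.

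On the restricted diets the same comparison of ages called none of the 58. For Low Amino Acid 0 passed by edgeR (1.61% of all genes passed), by DESeq2 or by voom, with a median of -0.02. At an unadjusted p under 0.05 there were 0 members, where 13.8% of all genes were under it. For Low Isoleucine 0 passed by edgeR (7.34% of all genes), DESeq2 or voom, with 1 higher and 1 lower unadjusted: Rps16 at 0.30 (adjusted p = 0.158) and Rpl27a at -0.24 (adjusted p = 0.165). Of all genes 14.1% were higher and 11.1% lower unadjusted. The Low Isoleucine median was -0.07 and turned to 0.06 without TMM scaling, which moved the median of all genes to 0.14 and the share of calls that were higher from 66.7% to 94.4%, and to 0.02 without the neutrophil-high libraries.

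Whether a diet acted differently at the 2 ages was tested directly. For Low Amino Acid 0 of 58 passed by edgeR, DESeq2 or voom, where 0.0% of all genes passed by edgeR. At an unadjusted p under 0.05 0 were higher and 2 lower, with Rps21 at -0.46 ± 0.20 (edgeR adjusted p = 0.482), where 5.65% of all genes were lower. For Low Isoleucine 0 passed by the same tools (0.0% of all genes), with 0 higher and 4 lower unadjusted, among them Rps21 (-0.40, adjusted p = 0.585), Rpl27a and Rpl14. Of all genes 5.19% were lower unadjusted. The larger medians at 24 months than at 6 months are thus not shown to differ between the ages.

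The authors' deposited table for females gave close values and extended them to the 21 genes of the set that it lists and that have no usable counts. Over the 58 shared genes its log2 fold changes correlated with those from counts at r = 0.97 for Low Amino Acid and 0.94 for Low Isoleucine at 6 months, 0.93 and 0.82 at 24 months, 0.99 for age in Control and 0.77 for age in Low Isoleucine. At 6 months none of the 79 passed an adjusted p of 0.05 in the authors' deposited table for Low Amino Acid (0.0116% of all genes did) or Low Isoleucine (0.0931%), and at 24 months 0 passed under Low Amino Acid (5.53%). At an unadjusted p under 0.05 the authors' deposited table has 0 higher and 5 lower, 1 higher and 6 lower, and 0 higher and 23 lower in these 3 comparisons. The share of all genes at an unadjusted p under 0.05 was not computed for the deposited tables. Their unadjusted counts, here and below, therefore stand without a background and are not read as an excess. Under Low Isoleucine at 24 months 2 of 79 fell in the authors' deposited table, where 5.21% of all genes did: Rpl27a (-0.36, adjusted p = 0.0325) and Rps13 (-0.32, adjusted p = 0.0453). In the authors' deposited table Rps21 had -0.40 there, with an adjusted p of 0.0661.

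Among the 21 genes without counts, 19 under Low Amino Acid and 21 under Low Isoleucine lay below 0 at 24 months in the authors' deposited table, with medians of -0.23 and -0.21. Of all genes there, 50.7% and 51.4% lay below 0. At 6 months 16 and 14 of the 21 lay below 0, with medians of -0.16 and -0.11 in the authors' deposited table, where 49.1% and 51.0% of all genes did. Genes of the set vary together, so these are not counts of independent genes. The lowest-lying at 24 months included Rplp0, the base of the stalk, at -0.51 under Low Amino Acid (adjusted p = 0.158) and -0.55 under Low Isoleucine (adjusted p = 0.0949) in the authors' deposited table. Rpl41, Rpl39 and Rps27, which encode some of the shortest proteins of the ribosome, had, in the authors' deposited table, -0.45, -0.44 and -0.44 under Low Amino Acid and -0.31, -0.42 and -0.37 under Low Isoleucine, none past the threshold. For age in Control the authors' deposited table called 5 of 79, all higher, where 12.4% of all genes were, among them Rps16 (0.48), Rps12 (0.37, adjusted p = 0.0054), Rps21 (0.36) and Rpl12 (0.31, adjusted p = 0.0485). For age in Low Isoleucine the authors' deposited table called 0 of 79 (0.739% of all genes), with 1 higher and 2 lower at an unadjusted p under 0.05.

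In young males ribosomal protein genes moved both ways on the restricted diets, according to the authors' deposited table. For Low Amino Acid at 6 months the authors' deposited table lists 18 of 80 that rose (5.34% of all genes did) and 19 that fell (11.0%), with a median of -0.01. For Low Isoleucine the authors' deposited table lists 11 that rose (9.35%) and 29 that fell (11.7%), with a median of -0.15. Both comparisons share the male Control libraries. The stalk genes Rplp1 and Rplp2 stood among the lowest under both diets in the authors' deposited table, Rplp1 at -1.96 and -2.25 and Rplp2 at -1.54 and -1.74. Rplp0, the stalk's base, had -0.39 and -0.66 in the authors' deposited table, neither past the threshold.

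Other genes that fell far in young males were Rpl36 (-2.11 under Low Amino Acid, adjusted p = 3.16e-06, and -2.20 under Low Isoleucine), Rps29 (-1.11, -1.58) and the pseudogene Rps4l (-1.33, -2.05) in the authors' deposited table. There Rpl18 had -0.73 under Low Amino Acid and Rpl29 -1.96 under Low Isoleucine, both called in the authors' deposited table. Under Low Amino Acid the 6 that rose most, as the authors' deposited table gives them, were Rpl21 (0.78), Rps24 (0.48), Rpl23 (0.43), Rpl17 (0.42), Rpl36a (0.42) and Rpl5 (0.41). Under Low Isoleucine they were Rps24 (0.43), Rpl30 (0.35), Rpl5 (0.33), Rpl23 (0.32), Rpl17 (0.29) and Rpl4 (0.28) in the authors' deposited table. The named genes that fell had coding sequences of 56.3 to 61.3% GC, and those that rose 44.5 to 50.2% GC, Rps4l having no coding sequence.

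The male fold changes followed base composition across the whole set. Over the 77 members with a coding sequence, the Spearman correlation of the log2 fold change in the authors' deposited table with GC content was -0.81 under Low Amino Acid and -0.80 under Low Isoleucine at 6 months. Over 13579 other coding genes of the same authors' deposited table it was -0.58 and -0.54. These correlations are across genes, which are not independent replicates. The medians fell from band to band of GC content in members and other genes alike: under Low Amino Acid the medians in the authors' deposited table were 0.30 for 20 members and 0.16 for other genes under 50% GC, 0.06 and 0.01 between 50 and 55%, and -0.40 for 20 members and -0.25 for others between 55 and 60%. Under Low Isoleucine the same medians in the authors' deposited table were 0.24 and 0.17, -0.10 and 0.00, and -0.58 and -0.30. The part of GC-related library effects in these calls was not tested, since no male counts could be used.

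**Figure D5:**
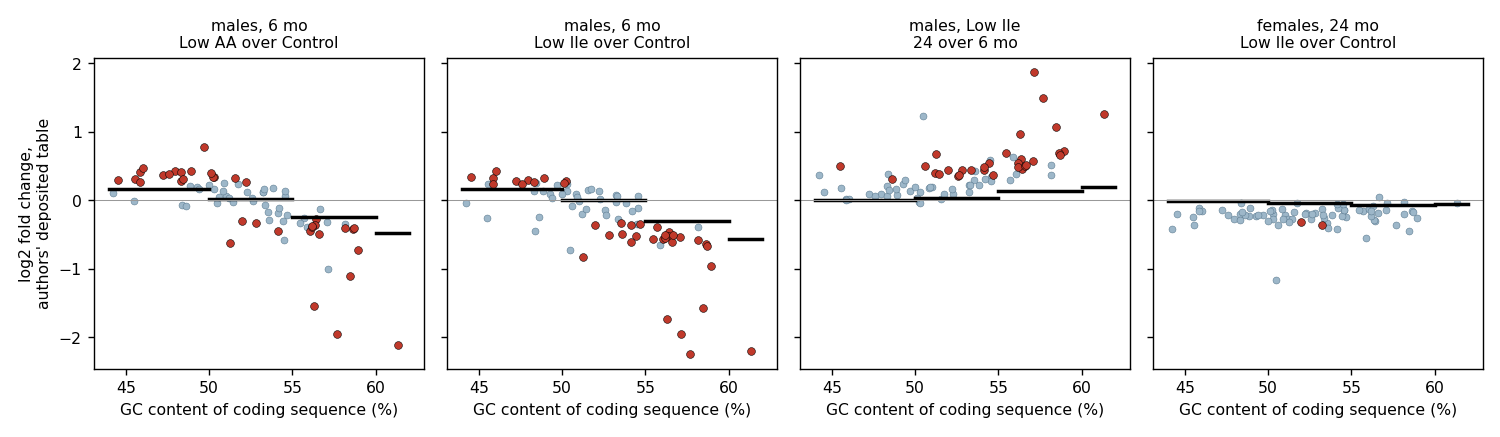
Log2 fold change in the authors' deposited tables (vertical axis) against the GC content of the coding sequence (horizontal axis, percent) for members with a coding sequence (points, red where the deposited adjusted p is under 0.05), with the median of other coding genes in bands of GC content (black lines). The panels show males at 6 months under Low Amino Acid and Low Isoleucine, where the members fall with GC content (rho = -0.81 and -0.80), males on Low Isoleucine at 24 over 6 months, where they rise (0.71), and females at 24 months under Low Isoleucine (0.16).

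In older males the restricted diets called none of these genes. Under Low Amino Acid at 24 months the authors' deposited table has none of 80 past the threshold (0.0563% of all genes are), with 0 at an unadjusted p under 0.05 and a median of 0.02. Under Low Isoleucine 0 of 80 passed (0.0676%) in the authors' deposited table, with 2 higher and 0 lower unadjusted and a median of 0.03. The correlation with GC content was -0.46 and -0.20 over the members and -0.06 and -0.13 over other genes in the authors' deposited table. The difference between ages or sexes was not tested.

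With age in male Control livers 23 of 80 rose (8.33% of all genes did) and 3 fell (11.7%), with a median of 0.10, in the authors' deposited table. The 3 that fell were Rps4l (-2.21), Rplp1 (-0.84) and Rplp2 (-0.68), and the highest of those that rose were Rpl30 (0.41), Rps25 (0.38), Rps15a (0.35), Rpl39 (0.35), Rps23 (0.35) and Rpl3 (0.34) in the authors' deposited table. The lowest of those that rose were Rpl23 and Rpl34, each 0.22, and Rps27a (0.24) in the authors' deposited table. With age on Low Isoleucine 31 of 80 rose (3.01% of all genes did) and 0 fell, with a median of 0.34 and 76 above 0, in the authors' deposited table. Among the genes called, the highest values were those of Rpl29 (1.87), Rplp1 (1.50), Rpl36 (1.26), Rps29 (1.08), Rplp2 (0.97) and Rpl18 (0.71) in the authors' deposited table. Among the smallest called values were those of Rps20 (0.31), Rpl14 (0.36), Rpl19 (0.36), Rpl34 (0.39) and Rpl23a (0.39) in the authors' deposited table. The young Low Isoleucine males enter both this comparison and the diet comparison at 6 months, so the 2 are not independent. The correlation with GC content was -0.79 for age in Control and 0.71 for age in Low Isoleucine, against -0.40 and 0.20 over other genes in the authors' deposited table.

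In females the correlation of the log2 fold change with GC content ran from -0.41 to 0.57 over the 6 comparisons of the authors' deposited table. One female library was low in the same stalk genes. In 6-month Low Isoleucine replicate 8, whose genes tracked GC content at rho = -0.52, Rplp1 stood at 13.9 CPM, Rplp2 at 10.3, Rpl36 at 4.32 and Rps29 at 17.1 CPM, each the lowest of the 46 libraries. The Rplp1 median of its group was 88.6 CPM and the Rpl36 median 38.0 CPM.

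Other genes of ribosome production and translation were read beside the members in females at 24 months by edgeR. Among all genes 0.745% passed under Low Amino Acid in either direction. Under Low Isoleucine 3.79% of all genes fell and 340 of 12617 rose. Of 5 further ribosome protein genes outside the naming rule, 0 passed under Low Amino Acid, with 5 lower at an unadjusted p under 0.05 and a median of -0.43, and 2 fell under Low Isoleucine: Rpl36al (-0.51, adjusted p = 0.0093) and Rps3a1 (-0.46, adjusted p = 0.0451). Of 34 ribosome assembly factors 3 fell and 0 rose under Low Amino Acid, with a median of -0.24: Tsr1 (-0.59), which acts in maturation of the small subunit, and Bop1 (-0.43) and Nop2 (-0.32), which act in that of the large subunit. Under Low Isoleucine 1 of 34 fell, Nip7 (-0.43), a share near that of all genes. Of 20 translation factors and other TOP mRNAs 0 passed under either diet, with medians of 0.00 under both, and 1 higher and 1 lower under Low Amino Acid and 2 higher and 0 lower under Low Isoleucine unadjusted. Of 14 regulators of TOP mRNAs 0 passed under Low Amino Acid and 1 fell under Low Isoleucine, Eif4ebp1 (-0.57, adjusted p = 0.0120), an mTORC1 target that restrains translation initiation.

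Of 13 genes of RNA polymerase I and its factors 0 passed under either diet. Of 76 mitochondrial ribosomal protein genes 0 passed under Low Amino Acid and 3 fell under Low Isoleucine, Mrpl27 (-0.40), Mrps15 (-0.37) and Mrpl10 (-0.26). The latter is a share near the 3.79% of all genes that fell. Of 14 ribosomal protein pseudogenes 1 rose under Low Isoleucine, Rpl31-ps20 (1.39), and 0 fell. For age in Control 5 of 34 assembly factors rose, Eif6 (0.49), Tsr1 (0.48) and Nop58 (0.45) most, a share below the 16.7% of all genes that rose. There 3 of 14 regulators fell, Eif4ebp2 (-0.49), Yy1 (-0.26) and Rptor (-0.24), where 1437 of all 12617 genes fell. In the same comparison, of 20 translation factors and other TOP mRNAs, Vim (1.29) and Hnrnpa1 (0.34) rose and Eif4a2 (-0.56) fell. At 6 months 0 genes of any of these lists passed by edgeR in the diet comparisons.

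In young males other genes of ribosome production and translation also passed in the authors' deposited table. Among all genes there, 5.34% rose and 11.0% fell under Low Amino Acid, and 9.35% rose and 11.7% fell under Low Isoleucine. The falls among translation factors and assembly factors given below were near these shares. For the 78 mitochondrial ribosomal protein genes the authors' deposited table lists 1 and 0 that rose and 22 and 26 that fell, under Low Amino Acid and Low Isoleucine in turn, with Mrpl53 lowest at -1.46 and -1.68. For 21 translation factors and other TOP mRNAs the authors' deposited table lists 8 and 6 that rose and 2 and 2 that fell, with Eef2, the elongation factor that works at the stalk, at -0.66 and -0.69. Of 35 assembly factors 2 and 5 rose and 5 and 4 fell, with Rrp9 at -1.03 and -1.08 in the authors' deposited table. Of the 7 ribosome protein genes outside the rule, Fau, which encodes a ribosomal protein fused to a ubiquitin-like protein, fell by 0.67 and 0.78 in the authors' deposited table, where Rack1 fell by 0.32 under Low Isoleucine. At 24 months 0 genes of these lists passed in males in the authors' deposited table.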

How the data were processed

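Estimated counts per gene, named as RSEM output, were used as the authors deposited them, unnormalized, and rounded. Log2 fold changes, p-values and adjusted p-values of the comparisons come, for each sex, from the authors' deposited table. The sources used here do not give the libraries, model or aligner behind it. The submitters' processing notes name edgeR, limma, R 3.4.3 and GRCm38.p5. Under the count table's male headers the columns are misaligned, so 45 columns of per-sample values and all lines not filled in every column were not used, leaving 17275 of 51912. Counts of 46 female libraries were fitted with edgeR 4.0.16 under R 4.3.3 (filterByExpr, TMM, quasi-likelihood, 6 group means, Benjamini-Hochberg over all 12617 genes, called under 0.05), checked on simulated counts. DESeq2 1.42.0 and limma 3.58.1 (voom with quality weights) were alternatives. CPM of the ribosomal protein genes used library sizes after TMM scaling, and CPM of the cell markers and Kdm5d used library totals. Log2 CPM used a pseudocount of 0.5. Positions, lengths and GC content are from GENCODE M21 (GRCm38). The authors' column read as 24 against 6 months in Low Isoleucine is labelled otherwise, but by arithmetic on the other columns it is that difference.

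Named genes were the called members of each comparison (if more than 12, the 6 highest and 6 lowest), members of known role, the 5 highest and 5 lowest per kilobase, and up to 3 called genes per further list. Members and lists were chosen with earlier results of these data known. The adjustment for GC content, and the fits without the libraries that track GC or length or are high in neutrophil markers, were chosen after seeing the data. Rpl26, Rpl21, Rpl6, Rps2, Rps18, Rpl14, Rpl28 and the genes at the ends of the second component were named after their values were seen. Some genes that the rule names are not reported here.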

Additional observations from a re-analysis of the deposited data

Results flagged for a closer look

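Of 78 groups of values checked, 9 held a library whose distance from the rest passed Dixon's limit at the 95% level, and chance alone gives about 1 group in 20. In 24-month Control, replicate 6 stood above the rest in the share of ribosomal protein counts (1.38%, the next 1.11%), in Rps21 (129.5 CPM, the next 77.9) and in Rps16 (156.9 CPM, the next 104.8). In 6-month Control, replicate 6 was lowest in Rps21 (41.8 CPM, the next 54.0). In 6-month Low Isoleucine, replicate 8 was lowest in Rplp1 (13.9 CPM, the next 82.2), Rplp2 (10.3 CPM, the next 43.5) and Rpsa (231.8 CPM, the next 358.7). In 6-month Low Amino Acid, replicate 3 was highest in Rpl26 (176.0 CPM, the next 116.1) and replicate 7 in Rps6 (366.1 CPM, the next 337.4). The library left out of the 6-month Low Isoleucine group, outside all comparisons here, held 50.8 CPM of the Y-linked gene Kdm5d against at most 0.639 CPM in the other female libraries.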

How the results depend on the processing

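The members' median log2 fold changes lay between -0.21 and 0.06 and held their sign only in part. Within groups the median member varied between single libraries with an SD of 0.22 on the log2 scale. That SD is not the error of a difference between group means. Among the scalings, tools and library sets run, 4 comparisons had a median that changed sign: Low Isoleucine against Control at 6 months, Low Isoleucine against Low Amino Acid at both ages, and age in Low Isoleucine. Leaving out 1 library changed it in the last 3 of these and for age in Control. The number of members called moved in 41 of 627 alternatives. For Low Isoleucine against Control at 24 months (1 called) it was 3 with DESeq2's size factors or its Wald test, 2 with the GC offset or without the neutrophil-high libraries, and 0 without TMM, with voom, without the filter, with only the groups compared or with the length offset. Leaving out single libraries gave 0 to 4. For Low Amino Acid at 24 months (0 called) it was 1 with DESeq2's Wald test, with the length offset, without the libraries that track GC or length and without the neutrophil-high ones, and leave-one-out gave 0 to 1. For age in Control (3 called) it was 5 without TMM or without the neutrophil-high libraries and 1 with only the groups compared, and leave-one-out gave 1 to 5. For age in Low Isoleucine (0 called) it was 1 without TMM. The cause was not tested. At a deposited adjusted p under 0.1 the authors' deposited table for females called 3 in place of 0 under Low Amino Acid and 7 in place of 2 under Low Isoleucine at 24 months. Without the 10 most abundant genes the share of counts was 1.23, 1.20 and 1.20% at 6 months and 1.30, 1.18 and 1.22% at 24 months (Control, Low Amino Acid, Low Isoleucine), as the smaller denominator gives. Changes in sign of a called value were 0. No paired analysis was possible because the replicate numbers only name libraries in accession order. Male values have no usable count behind them here, so their depth is unknown.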
